A study of Mus musculus with 6 samples.

Results

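The 6 genes described here encode orphan nuclear receptors of mouse stem cells, namely Esrrb, Nr5a2, Nr0b1, Esrra, Esrrg and Nr6a1. They were taken by gene symbol, and each was read by a single probe set, so that 6 of the 19938 genes measured on the arrays are at issue. Total RNA of the mouse embryonic stem cell line E14 was profiled on 6 expression arrays. Control cells received pooled non-specific siRNAs, and the cells of the 2 knockdown groups received siRNA 1 or siRNA 2 against p/CIP, with 2 arrays in each group. The cells of all groups grew attached to plates, and the sources used here give neither the dose of siRNA nor the time after transfection. Nothing in the labels says that replicates came from different cultures. The p-values therefore reflect the scatter among these arrays alone, and that scatter may be technical.

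p/CIP, the product of Ncoa3, is a p160 coactivator. It docks through short leucine-rich motifs onto the ligand-binding domain of nuclear receptors and brings histone acetyltransferases to their target genes. Orphan receptors have no established natural ligand, and several of them bind such coactivators without an added hormone. Esrrb and Nr5a2 (LRH-1) both read an extended half-site of the hexamer AGGTCA, sustain naive self-renewal and occupy many of the same enhancers as the core pluripotency factors. Nr0b1 (Dax1) lacks a classical DNA-binding domain, binds Nr5a2 and Esrrb as a corepressor and is itself a target of both. Esrra and Esrrg are the paralogs of Esrrb and are best known for mitochondrial and oxidative genes, while Nr6a1 (GCNF) silences Pou5f1 when stem cells differentiate.

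All values are on a log2 scale, where a difference of 1 is a doubling, and a gene was called where the adjusted p from limma over all 19938 genes was under 0.05. The target itself fell: Ncoa3 stood at 35.6% of control with both siRNAs together. The array of siRNA 1 replicate 2 stood apart from the rest, with an interquartile range of 3.13 against 3.33 to 3.45 on the others. Of 6 stem cell markers, 0 lay near background, and their mean level ran from 12.62 to 12.73 on the control arrays and from 12.44 to 12.58 on the knockdown arrays. The markers were not alike: 5 were below control, where 47.7% of all genes were, and 1 was above. Of the 6, 0 were called, where 0.0702% of all genes were called lower. Nanog and Zfp42 lay below both control arrays on all 4 knockdown arrays, as 10.1% of all genes did, at log2 changes of -0.33 and -0.39. Sox2, Pou5f1 and Utf1 were at -0.13, -0.10 and -0.03. Dppa5a, at 0.06, lay above both control arrays on all 4 knockdown arrays, as 8.83% of all genes did.

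After p/CIP knockdown, Nr0b1 fell to 54.6% of control, Esrrb and Nr5a2 read 70.8% and 73.5% of control without passing the test, and Esrra, Esrrg and Nr6a1 read between 99% and 110%. In all, 1 of the 6 receptors was called lower and 0 higher, where 0.0702% of all genes were called lower. On all 4 knockdown arrays, 3 of the 6 (Esrrb, Nr5a2 and Nr0b1) lay below both control arrays, an order seen for 10.1% of all genes, and 1 (Esrra) lay above both, an order seen for 8.83%. The 3 lower receptors are those linked most closely to the naive state. In bulk RNA, fewer cells that express a gene and less of its RNA per cell cannot be told apart.

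**Figure D1:**
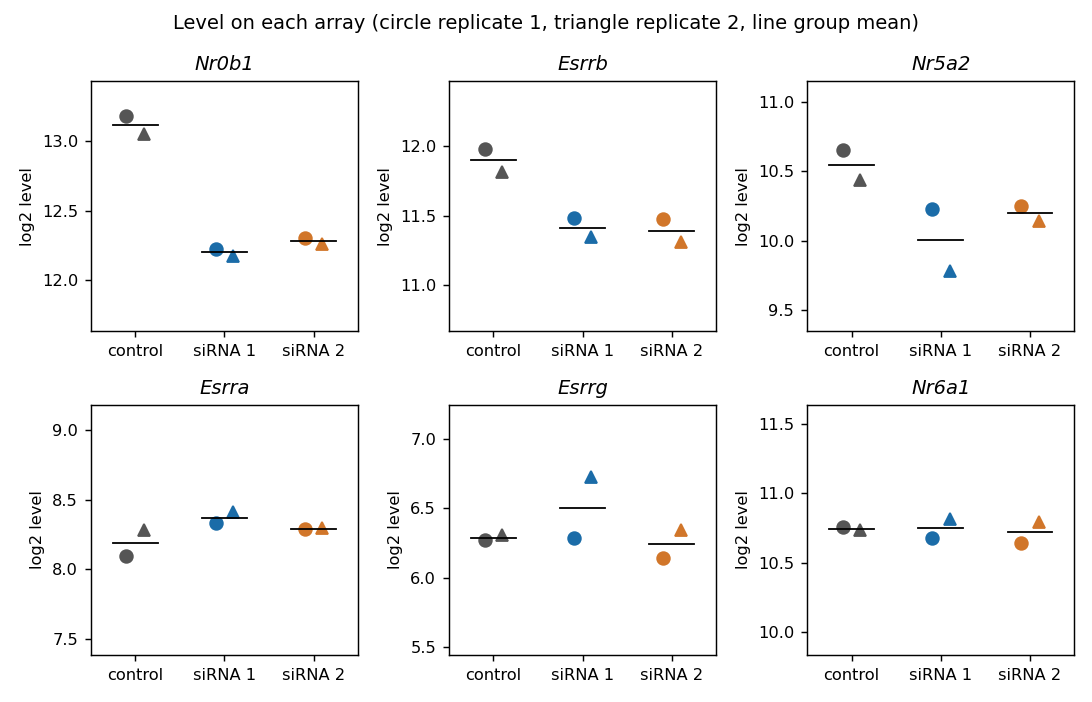
Level of each receptor (log2, vertical axis; each panel spans the same range) on the 6 arrays by siRNA group, with circles for replicate 1, triangles for replicate 2 and lines for group means. Nr0b1 dropped from 13.05 or more in control cells to 12.30 or less in all 4 knockdown arrays, while Nr6a1 stayed between 10.64 and 10.82 on all 6 arrays.

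For Nr0b1 the control levels were 13.18 and 13.05. Cells given siRNA 1 had levels of 12.23 and 12.18, and cells given siRNA 2 had levels of 12.30 and 12.26. The knockdown arrays lay in a band far narrower than their distance from control, and the groups did not overlap. The fall over both siRNAs was 1.83-fold (log2 change -0.87, standard error 0.0727, 95% interval -1.04 to -0.70, limma adjusted p = 0.0347), the 4th smallest p of all genes. Its pooled spread within groups was 0.0601, below the median of all genes (0.1), so that Nr0b1 was among the more repeatable probe sets as well as among the most changed. The change kept its size, between -0.94 and -0.81, whichever array was left out, but the call did not. The adjusted p rose to 0.784 when control replicate 1 was dropped and to 0.248 when control replicate 2 was. Dropping siRNA 2 replicate 1 gave 0.216, and dropping its replicate 2 gave 0.21. In these fits the lone array of a group is assumed to vary like the other groups.

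Esrrb, the receptor whose loss impairs naive self-renewal, had control levels of 11.99 and 11.82. Its levels were 11.48 and 11.35 under siRNA 1 and 11.48 and 11.31 under siRNA 2. The groups did not overlap, and the 2 siRNA groups were nearly superimposed. The log2 change was -0.50 (standard error 0.09, 95% interval -0.71 to -0.28), which limma did not call (adjusted p = 0.186, rank 94 by p). With the replicate number as a block, a pairing taken from the data and not from the labels, Esrrb was called lower (limma adjusted p = 0.0386). That fit called 2 of the 6 receptors lower, where 0.311% of all genes were called lower.

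Nr5a2, which can replace exogenous Pou5f1 in reprogramming, had levels of 10.65 and 10.44 in control cells. The siRNA 1 arrays gave 10.22 and 9.78, and the siRNA 2 arrays 10.25 and 10.14. All 4 knockdown arrays lay below both control arrays, but the array of siRNA 1 replicate 2 lay well below the other 3. The log2 change was -0.44 (standard error 0.134, 95% interval -0.76 to -0.13, adjusted p = 0.4, and 0.0928 with the block). Without siRNA 1 replicate 2 it was -0.33. Nr5a2 had a pooled spread within groups of 0.205, higher than that of 90.9% of genes.

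Esrra, a regulator of oxidative metabolism, had control levels of 8.10 and 8.29. Its levels were 8.33 and 8.41 under siRNA 1, and both were 8.29 under siRNA 2. The groups were separate by the thinnest of margins, since siRNA 2 replicate 1 read 8.2885 and control replicate 2 read 8.2859. The log2 change of 0.14 (standard error 0.0799, 95% interval -0.05 to 0.33, adjusted p = 0.656) did not pass.

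Esrrg, the third paralog, had levels of 6.27 and 6.31 in control cells, of 6.28 and 6.73 under siRNA 1 and of 6.14 and 6.34 under siRNA 2. The groups overlapped, and the high value came from siRNA 1 replicate 2. The log2 change was 0.08 (standard error 0.131, adjusted p = 0.864) and turned to -0.03 without that array. No detection calls were used, but the mean of 6.34 lay below 6.73, the 95th percentile of 1027 olfactory receptor genes, a group taken not to be used in these cells. The Esrrg probe set was thus near background by this guide, so its values bear little on the transcript.

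Nr6a1, the repressor of pluripotency genes in differentiating cells, had levels of 10.76 and 10.74 in control cells, of 10.67 and 10.82 under siRNA 1 and of 10.64 and 10.79 under siRNA 2. The control arrays lay inside the range of the knockdown arrays. The log2 change was -0.01 (standard error 0.0805, 95% interval -0.20 to 0.18, adjusted p = 0.969), and its sign turned with quantile normalization (0.02) and cyclic loess (0.03). The interval leaves out a fall as large as the estimate for Esrrb or Nr0b1.

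**Figure D2:**
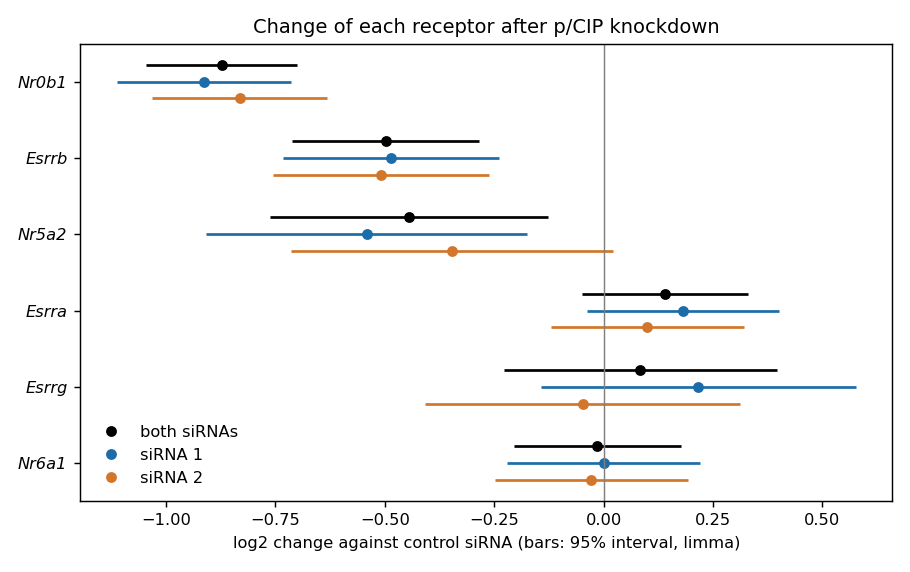
Log2 change of each receptor against control siRNA (horizontal axis) for both siRNAs (black), siRNA 1 (blue) and siRNA 2 (orange), with bars for the 95% interval of limma. The intervals of Nr0b1 and Esrrb lie below 0 for either siRNA, that of Nr5a2 with siRNA 2 reaches 0.02, and those of Esrra, Esrrg and Nr6a1 hold 0; these intervals are not adjusted for the number of genes.

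The 3 lower receptors differed in the size of the change. Set against the control mean of each gene, the change of Nr0b1 minus that of Esrrb was -0.47 and -0.38 with siRNA 1 and -0.38 and -0.26 with siRNA 2. Minus that of Nr5a2, it was -0.57 and -0.18 with siRNA 1 and -0.52 and -0.45 with siRNA 2. Nr5a2 and Esrrb had no fixed order: the change of Nr5a2 minus that of Esrrb was 0.10 and -0.21 with siRNA 1, and 0.13 and 0.19 with siRNA 2. The change of Nr0b1 was smaller than that of the siRNA target Ncoa3, by 0.71 and 0.44 with siRNA 1 and by 0.78 and 0.53 with siRNA 2. These are values without a test, since the receptors were chosen with such results known.

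Each siRNA was then set against the same control arrays, so the comparisons are not independent. With siRNA 1, Nr0b1 fell 1.88-fold (log2 change -0.91, standard error 0.0839, limma adjusted p = 0.0452), Esrrb was at -0.49 (adjusted p = 0.193, and 0.0384 with the replicate block) and Nr5a2 at -0.54 (0.287). Esrra, Esrrg and Nr6a1 were at 0.18, 0.22 and 0.00. Thus 1 of the 6 receptors was called lower, where 0.0702% of all genes were, and 2 with the block, where 0.963% were. The call of Nr0b1 held without siRNA 1 replicate 1 (0.0357), but the adjusted p became 0.662 when control replicate 1 was dropped and 0.286 when control replicate 2 was. It was 0.0833 when siRNA 1 replicate 2 was dropped and 0.155 when either array of siRNA 2 was. Without siRNA 1 replicate 1, Nr5a2 was at -0.76 and was called (0.0461), a value that rests on siRNA 1 replicate 2 alone.

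With siRNA 2, limma called 0 of the 6 receptors and 0% of all genes, with 597 genes lower and 449 higher at an unadjusted p under 0.05. The value for Nr0b1 was -0.83 (standard error 0.0839, adjusted p = 0.0906, the 4th smallest p of all genes), for Esrrb -0.51 (0.385) and for Nr5a2 -0.35 (0.976). The replicate block called Nr0b1 (0.048), as 1 of the 6 receptors where 0.11% of all genes were called lower, and left Esrrb at 0.0727. Nr0b1 was also called without siRNA 1 replicate 1 or replicate 2 (0.0492 for each). Esrra, Esrrg and Nr6a1 were at 0.10, -0.05 and -0.03.

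Between siRNA 2 and siRNA 1, limma called 0 of the 6 receptors and 0% of all genes, with 706 lower and 670 higher at an unadjusted p under 0.05. The difference was 0.08 for Nr0b1 (95% interval -0.12 to 0.28) and -0.02 for Esrrb (-0.27 to 0.22). It was 0.19 for Nr5a2 (-0.17 to 0.56), and -0.03 without siRNA 1 replicate 2. For Esrra it was -0.08 (-0.30 to 0.14), for Esrrg -0.26 (-0.62 to 0.10, and -0.04 without siRNA 1 replicate 2), and for Nr6a1 -0.03 (-0.25 to 0.19). The replicate block called 1 gene lower and 14 higher in this comparison, and 0 of the 6 receptors.

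Part of the spread of the receptors followed the replicate number. Esrrb was lower on replicate 2 than on replicate 1 in each of the 3 groups, by 0.17, 0.14 and 0.16 in control, siRNA 1 and siRNA 2 cells. For Nr5a2 the gaps were 0.21, 0.44 and 0.11, and for Nr0b1 they were 0.13, 0.05 and 0.04, again lower on replicate 2. Esrra and Esrrg were higher on replicate 2 in all 3 groups, and Nr6a1 went down in control cells and up with either siRNA. In all, 3 of the 6 receptors were lower and 2 higher on replicate 2 in every group, where 21.4% and 28.5% of all genes were. The replicate 2 arrays also had the narrower interquartile range over all probe sets or genes in every group. It was 3.45 and 3.35 on control replicates 1 and 2, 3.36 and 3.13 with siRNA 1, and 3.4 and 3.33 with siRNA 2. The part of this array-wide difference in the gaps of the receptors and of the markers below was not tested.

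Markers of other cell types also differed between replicate numbers. Of 7 markers of extraembryonic endoderm, a lineage that can arise in stem cell cultures, 5 were higher on replicate 2 in all 3 groups. Over all genes the share was 28.5%. Gata6, a defining factor, was higher by 0.56, 1.06 and 0.42 in control, siRNA 1 and siRNA 2 cells, while Afp differed by 0.01, -0.07 and -0.25. Foxa2 was higher in control and siRNA 1 cells and differed by -0.06 with siRNA 2. The mean of the 7 was higher on replicate 2 by 0.36, 0.54 and 0.20 in the 3 groups, that of the trophoblast markers by 0.06, 0.05 and 0.19, and that of the fibroblast markers by 0.04, 0.28 and 0.18. The mean of the stem cell markers was lower on replicate 2, by 0.10, 0.12 and 0.08. That of the primed epiblast markers differed by 0.09, -0.13 and -0.02. The endoderm mean ran from 7.91 to 8.27 in control cells, from 8.05 to 8.59 with siRNA 1 and from 8.05 to 8.25 with siRNA 2, with the highest value on siRNA 1 replicate 2, where Nr5a2 was lowest. 1 of the 7 genes, Afp, lay near background by the olfactory guide. Against control, 6 of the 7 markers were above and 1 below, with 0 called and a median of 0.18 (0.29 with siRNA 1 and 0.06 with siRNA 2). For this list and the next 3, the shares over all genes were 47.7% below control and 0.0702% called lower, with 0 genes called higher. Among primed epiblast markers 4 of 5 were above control (median 0.33, with 0.09 for siRNA 1 and 0.33 for siRNA 2), with 0 called, or 0 to 1 with an array left out in turn. Fgf5, a growth factor of the primed state, was at 0.67 (adjusted p = 0.053) and was called higher with the block (0.0269). Otx2 was at 0.09 with siRNA 1 and 0.57 with siRNA 2, and Pou3f1 at 0.41 and 0.33. Zic2 went the other way, at -0.34 (-0.54 with siRNA 1 and -0.14 with siRNA 2), with all 4 knockdown arrays below both control arrays. Among trophoblast markers 6 of 6 were above over both siRNAs (median 0.12), but the median was 0.28 with siRNA 1 and -0.01 with siRNA 2. With siRNA 2, Cdx2, Hand1 and Gata3 were at -0.22, -0.11 and -0.11. Eomes was at 0.31 with siRNA 1 and 0.27 with siRNA 2, and Ascl2 at 0.50 and 0.11. These 2 of the 6 (33.3%) lay above both control arrays on all 4 knockdown arrays, against 8.83% of all genes, and 0 lay below both. Among fibroblast markers 4 of 6 were above (median 0.04). Thy1, at 0.33 with siRNA 1 and 0.37 with siRNA 2, was the 1 of the 6 (16.7%) above both control arrays on all 4 knockdown arrays. In both lists 0 genes were called. The differences between the siRNAs in these medians were not tested. The part of these cells in the values of the receptors was not tested.

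The 3 genes of most similar profile were sought for each receptor whose standard deviation over the 6 arrays lay in the top 10% of all genes, which Nr0b1, Esrrb and Nr5a2 did. The measure was the root mean square difference over the 6 arrays after each gene was centred on its own mean. For Nr0b1 they were Dpp4, a cell surface peptidase (0.0461), Ntn1, which encodes netrin-1 (0.0538), and Porcn, the acyltransferase of WNT proteins (0.0607), with log2 changes of -0.80, -0.83 and -0.81 with both siRNAs. These genes were chosen on the same arrays, so that a like change was fixed by the choice and their values are a description. For Esrrb they were Tle5, a Groucho-related corepressor (0.0331), Epop, a Polycomb-associated protein (0.0461), and Ninl, a centrosomal protein (0.0496). For Nr5a2 they were Sirt1, a protein deacetylase (0.0372), Ube2a, a ubiquitin-conjugating enzyme (0.0386), and Stat4 (0.0479). The log2 changes of the neighbours of Esrrb and Nr5a2 ran from -0.48 to -0.40.

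**Figure D3:**
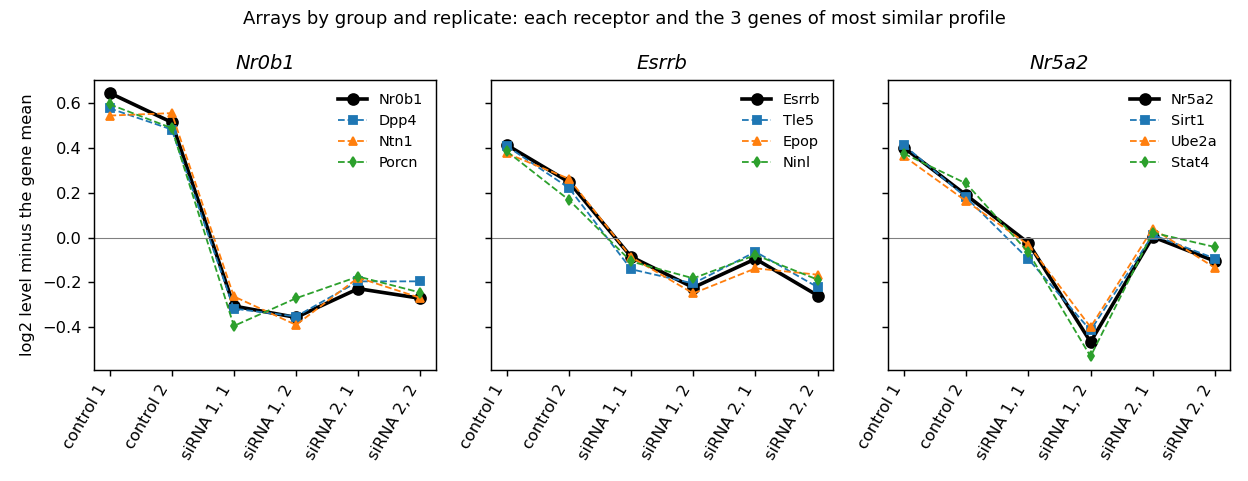
Log2 level minus each gene's own mean (vertical axis) on the 6 arrays in the order control, siRNA 1 and siRNA 2, replicates 1 and 2 of each, for Nr0b1, Esrrb and Nr5a2 (black) and the 3 genes chosen for the most similar profile to each (dashed). Nr0b1 steps down between control and knockdown arrays, Esrrb steps down with a further drop on each replicate 2, and Nr5a2 has its minimum, 9.78 before centring, on siRNA 1 replicate 2.

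Promoter sequences were examined because both Esrrb and Nr5a2 bind extensions of AGGTCA and Nr0b1 is their target. RefSeq windows of 300 bases (250 before and 50 after an annotated start, build GRCm38.p6) matched all 6 receptors, with 12 windows in all, since 4 of the genes have several starts. On either strand, AGGTCA was found in 3 of the 12 windows and in 16.3% of all 32851 windows. Its longer form AAGGTCA, which contains it, was found in 1 of the 12 and in 4.72% of all. The full site TCAAGGTCA, which contains both, was found in 0 of the 12 and in 0.423% of all, and the direct repeat of AGGTCA with no gap, the site of Nr6a1, in 0 of the 12 and in 0.00609% of all. The 250 bases before the start are shown for the 3 windows with a match, 5′ to 3′ along the gene, with AGGTCA or its reverse complement in capitals. They come from 1 receptor that fell (Nr0b1), 1 that read lower without a call (Nr5a2) and 1 at its control level (Nr6a1).
Nr0b1 (chrX:86191525-86191774, plus strand): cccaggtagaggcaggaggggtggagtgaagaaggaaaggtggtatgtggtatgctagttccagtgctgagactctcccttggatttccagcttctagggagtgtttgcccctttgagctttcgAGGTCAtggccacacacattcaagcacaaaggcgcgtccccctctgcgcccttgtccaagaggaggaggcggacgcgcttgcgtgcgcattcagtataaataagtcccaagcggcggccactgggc
Nr5a2, first start (chr1:136960449-136960698, minus strand): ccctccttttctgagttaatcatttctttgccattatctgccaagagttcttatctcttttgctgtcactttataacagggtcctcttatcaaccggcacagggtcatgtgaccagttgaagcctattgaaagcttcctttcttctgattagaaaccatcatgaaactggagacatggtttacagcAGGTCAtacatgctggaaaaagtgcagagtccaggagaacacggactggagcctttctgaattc
Nr6a1, second start (chr2:38784516-38784765, minus strand): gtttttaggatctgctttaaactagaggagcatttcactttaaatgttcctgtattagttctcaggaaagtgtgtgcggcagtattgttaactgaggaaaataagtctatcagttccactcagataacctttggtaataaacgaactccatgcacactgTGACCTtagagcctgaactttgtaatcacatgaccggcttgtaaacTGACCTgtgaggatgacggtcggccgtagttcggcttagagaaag

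The match begins 126 bases before the start in Nr0b1 and 64 bases before it in Nr5a2, in the direction of the gene. In Nr6a1 there are 2 matches on the opposite strand, 91 and 45 bases before the start, and the first of these is the AAGGTCA. The second start of Nr5a2, both starts of Esrrb, the 4 of Esrrg and that of Esrra hold no match in their windows. Only exact matches were counted, so a site that differs in any base or lies outside the windows was missed. In Nr0b1 the match follows the letters tcg, where the full site has TCA. These are matches of letters, and no binding was measured here.

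Among 20 stem cell factors linked to Esrrb and Nr5a2, 18 were below control, against 47.7% of all genes, and the median log2 change was -0.26, against 0.01 over all genes. Pou5f1, Sox2, Nanog and Zfp42 are in this list and also among the stem cell markers above. On all 4 knockdown arrays 13 of the 20 (65%) lay below both control arrays, against 10.1% of all genes, and 1 (5%) lay above both, against 8.83%. Over all genes limma called 1 of the 20 lower and 0 higher, where 0.0702% of all genes were called lower, and 3 lower with the block, where 0.311% were. Tbx3, a T-box factor of the naive state, fell (log2 change -0.91, adjusted p = 0.0388). Its control levels of 10.84 and 10.61 lay above 9.78 and 9.94 under siRNA 1 and above 9.75 and 9.78 under siRNA 2, without overlap. Klf4, a Kruppel-like reprogramming factor, was at -0.78 (0.134, and 0.018 with the block), the DNA demethylase gene Tet2 at -0.81 (0.199, and 0.0212 with the block) and Klf2 at -0.32 (0.246). With 1 array left out in turn, 0 to 1 genes of the list were called. The list was chosen with such results known, so its count is not independent evidence of its direction.

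Of 15 coregulators that serve the receptors, 8 were below and 7 above control (median -0.00), where 47.7% of all genes were below. With or without the block, 0 were called in either direction, where 0.0702% of all genes were called lower without it. On all 4 knockdown arrays 3 of the 15 (20%) lay below both control arrays and 1 (6.67%) above, against 10.1% and 8.83% of all genes. Of the other p160 genes, Ncoa1 was at -0.06 and Ncoa2 at 0.13 (adjusted p = 0.646). Med1, the Mediator subunit that contacts nuclear receptors, was at -0.18 (0.544). Ppargc1a and Ppargc1b, the PGC-1 coactivators through which the estrogen-related receptors act in oxidative tissues, were at 0.02 and -0.00. They read 4.67 to 4.89 and 7.34 to 7.59 over the 6 arrays, the former under the olfactory guide of 6.73.

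Genes that the receptors are known to act on in other tissues were measured too. Of 22 mitochondrial and oxidative genes of the estrogen-related receptors, 19 were below control, against 47.7% of all genes, and 3 above. The median was -0.04. Of the 22, 0 were called, where 0.0702% of all genes were called lower, and 0 had all 4 knockdown arrays below both controls, where 10.1% of all genes did. Idh3b, a subunit of isocitrate dehydrogenase, was lowest at -0.24 (adjusted p = 0.403), with levels of 11.63 and 11.76 under siRNA 1, 12.10 and 12.13 under siRNA 2 and 12.18 and 12.11 in control cells. Of 10 steroidogenic genes, which NR5A receptors activate and Nr0b1 represses in adrenal and gonad, 2 were below control and 8 above (median 0.05). Of all genes 47.7% were below. Of the 10, 0 were called, and 3 (30%) lay above both control arrays on all 4 knockdown arrays, against 8.83% of all genes. By their mean over the arrays 6 of the 10, and 5 of the 8 above control, were under the olfactory guide (Amh, Cyp11a1, Cyp11b1, Cyp17a1, Hsd3b1 and Mc2r). Hsd3b1, a steroid dehydrogenase gene, was at 0.30 (0.355) and Star, the cholesterol transporter, at 0.16 (0.623), and Hsd3b1 read 4.15 to 4.58 over the arrays.

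Of 9 genes of TCF and beta-catenin signalling, which controls Esrrb through the repressor Tcf7l1, 4 were below and 5 above control (median 0.04). Of all genes 47.7% were below. Of the 9, 0 were called, where 0.0702% of all genes were called lower and 0 higher. On all 4 knockdown arrays 2 (22.2%) lay below both control arrays and 1 (11.1%) above, against 10.1% and 8.83% of all genes. Tcf7l1 itself was at -0.17 (adjusted p = 0.542). Its levels were 11.32 and 11.40 in control cells and 11.16 to 11.22 on the knockdown arrays, without overlap. Lef1, an activating partner of beta-catenin, was at 0.41 (0.186).

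Of 17 other orphan receptors, 5 were below and 12 above control (median 0.02), where 47.7% of all genes were below. Of the 17, 0 were called, where 0.0702% of all genes were called lower and 0 higher. On all 4 knockdown arrays 0 lay below both control arrays and 0 above, against 10.1% and 8.83% of all genes. By their mean 7 of the 17, and 6 of the 12 above control, were under the olfactory guide. Nr2f1 was at 0.18 (adjusted p = 0.655), Nr0b2, the closest relative of Nr0b1, at 0.21 (0.663), and Nr5a1, the paralog of Nr5a2, at -0.01. Nr0b2 read 6.10 to 6.61 and Nr2f1 read 6.20 to 6.56, both under the guide of 6.73, and Nr5a1 read 7.33 to 7.69.

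**Figure D4:**
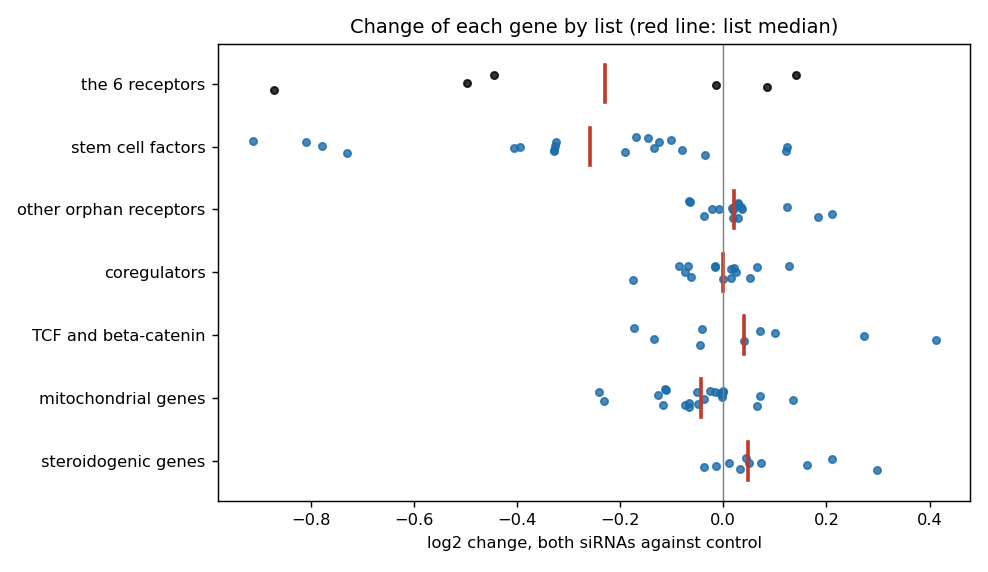
Log2 change with both siRNAs against control (horizontal axis) for each measured gene of 7 lists (points), with the list median as a red line. The 6 receptors split into 3 genes at -0.44 or below and 3 at -0.01 or above, the stem cell factors have a median of -0.26, and the other lists have medians between -0.04 and 0.05.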

How the data were processed

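The authors deposited 1 table of log2 values, with 35556 probe sets on 6 arrays. The log base was inferred from the range of 2.69 to 14.6. Per the submitters' processing notes Partek was used, with version, background correction and normalization not given in the sources here. Symbols were taken from the platform annotation held by GEO: 21789 probe sets held 1 symbol, 1621 held several and were left unnamed, and 12146 were not listed or had no symbol. The brightest probe set stood for a gene, which left 19938 genes.

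All 3 groups were fitted together in limma 3.58.1 (R 4.3.3), by lmFit and eBayes without a filter, with 3 residual and 3.84 prior degrees of freedom. Tests were two-sided, with Benjamini-Hochberg adjustment over all genes. The fit was tested on simulated data with 200 changed genes. The 6 receptors and all gene lists were chosen with earlier results of these data known, so no list was tested as a set. Genes named from a list were at most the 4 of smallest p, and each receptor in the top 10% by standard deviation had its 3 nearest profiles named. Other genes were named after their values were seen: Ncoa1, Ppargc1a, Ppargc1b, Gata6, Gata3, Cdx2, Afp, Dppa5a, Utf1, Cyp11a1, Cyp11b1, Cyp17a1 and Nr5a1. The search for AGGTCA alone was added after the promoters were seen.

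Arrays that share a replicate number were compared by how they deviate from their group's mean; these deviations correlated at 0.464, 0.407 and 0.461 across genes. All exceed 0.1, so a block by replicate number was fitted as an alternative. The main fit holds no block and ignores this pairing, which comes from the data and not from the labels. With 2 arrays in a group this check is weak. Precision is limited by how few arrays there are. Alternatives covered normalization, a filter on dim genes, probe set choice, variance moderation, the arrays fitted, blocks and each array left out.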

Additional observations from a re-analysis of the deposited data

How the results depend on the processing

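The direction of Nr0b1, Esrrb, Nr5a2 and Esrra against control was the same under each setting tried, in all 3 comparisons with control. Nr0b1 with both siRNAs (-0.87) was not called when all probe sets were tested (adjusted p = 0.207), in an unmoderated linear model (0.366) or with a block by array code (0.157), and Esrrb (-0.50) was called with the replicate block (0.0386) and with trend and robust options (0.038). Over these settings the adjusted p of Nr0b1 ran from 5.64e-04 to 0.784. Leaving out 1 array gave changes from -0.94 to -0.81 for Nr0b1, -0.58 to -0.41 for Esrrb, -0.55 to -0.33 for Nr5a2, 0.05 to 0.24 for Esrra, -0.0264 to 0.20 for Esrrg and -0.0515 to 0.0239 for Nr6a1.

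Nr6a1 turned sign with both siRNAs after quantile normalization (0.0244) and cyclic loess (0.0266), with siRNA 1 after alignment of medians (-0.0307), and between the siRNAs after the same step (0.0108), where Esrrb turned too (0.0167). With 1 array left out, values that turned ran from -0.071 to 0.0718 (Nr6a1) and -0.0049 to 0.44 (Esrrg) for siRNA 1, from -0.10 to 0.0474 and -0.15 to 0.0522 for siRNA 2, and, between the siRNAs, from -0.10 to 0.0593 for Esrrb, -0.0269 to 0.42 for Nr5a2 and -0.10 to 0.047 for Nr6a1.

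The replicate block called 0.311%, 0.963% and 0.11% of all genes lower with both siRNAs, siRNA 1 and siRNA 2. In the main fit these shares were 0.0702%, 0.0702% and 0%. Counts over all genes under the other settings follow in the next paragraph. Of the 6 receptors, both siRNAs called 2 with the replicate block or with trend and robust options, and 0 with all probe sets, unmoderated or by array code. siRNA 1 called 2 and 0 under the same settings, and 0 with only the arrays compared. siRNA 2 called 1 with the block, trend and robust options, the filter on dim genes or only the arrays compared. With 1 array left out, the count was 0 to 1 for both siRNAs, 0 to 2 for siRNA 1, 0 to 1 for siRNA 2 and 0 between them. The same 3 receptors lay below and 1 above both control arrays on every knockdown array after each normalization and without siRNA 1 replicate 2, settings added after the data were seen.

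Of all genes, both siRNAs called 14, but 68 with the replicate block, 71 with trend and robust options, 38 with the filter and 0 with all probe sets, unmoderated or by array code (0 to 37 with 1 array left out). For siRNA 1 the count of 14 became 241 with the block, 150 with trend, 85 with the filter, 35 with medians aligned, 37 after cyclic loess, and 0 with all probe sets, unmoderated, by array code or with only the arrays compared (0 to 437). For siRNA 2 the count of 0 became 26 with the block, 17 with trend, 11 with the filter, 10 with only the arrays compared, 5 with medians aligned and 2 after quantile normalization or cyclic loess (0 to 10). Between the siRNAs it became 15 with the block, 23 with trend, and 4 with the filter or medians aligned (0 to 2). The filter removed Esrrg, so it has no value there. Beyond fewer genes or arrays by construction, the cause of these shifts was not tested.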
